A study of Mus musculus with 4 samples.

Results

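The sirtuin family of the mouse comprises 7 genes, Sirt1 to Sirt7, and was taken by gene symbol from the deposited table of gene counts. All 7 were found among the 78275 genes of that table, and all 7 passed the filter on low counts that left 19736 genes to be tested. Sirtuins are enzymes that remove acetyl and other acyl groups from lysine residues of proteins and consume NAD+ each time they do so, which ties their activity to the metabolic state of the cell. The members work in different places: histones and transcription factors are substrates of the nuclear enzymes (SIRT1, SIRT6 and SIRT7), tubulin of the cytoplasmic SIRT2, and metabolic enzymes of the mitochondrial ones (SIRT3, SIRT4 and SIRT5). In the testis, sirtuins are known for roles in chromatin organisation, DNA repair and metabolism of germ cells.

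The libraries came from spermatogonia-enriched testicular cells of 129S1/Sv mice at postnatal day (Pnd) 5. The first group, labelled KO, was Sirt7-/-, and the other was wild type (WT), with 2 libraries each. Spermatogonia, the mitotic germ cells from which spermatogenesis starts, were enriched by letting somatic cells attach to a dish and collecting the cells that stayed in suspension, so the cells were enriched and not sorted. Pellets held 200000 cells. The labels name no Cre driver or cell-type restriction for the knockout, and which exons the allele removes is not given in the sources used here. The study's methods describe the replicates as independent and biological, and neither they nor the labels say how many animals went into each.

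Library totals lay between 22048692 and 22181066 counts in Sirt7-/- and between 22007504 and 22114233 counts in WT. Replicates differed by more than counting noise in both groups, with a mean chi-square per gene of 7.59 between the Sirt7-/- libraries and 3.48 between the WT libraries. Between a Sirt7-/- and a WT library it was 7.19 to 7.95, so the Sirt7-/- libraries differed from each other about as much as from WT. The labelled cell type was checked against 20 spermatogonial markers, all of which passed the filter and none of which was called changed (Benjamini-Hochberg adjusted p under 0.1 in edgeR's quasi-likelihood test) or by DESeq2. With an unadjusted p under 0.05 in edgeR's test there were 4 of 20, against 8.62% of all genes tested. Upp1, Utf1 and Foxo1 were higher and Etv5 lower in Sirt7-/- (named after their values were seen). Blocking on replicate number added calls for 2, both higher (Upp1 and Utf1). Over the 20 markers, 10 log2 fold changes were positive and 10 negative. Their summed level was 2504 and 2232 CPM (counts scaled to library size) in Sirt7-/- and 2379 and 2429 CPM in WT. Dazl, an RNA-binding protein of germ cells, had 640 and 584 CPM in Sirt7-/- and 588 and 656 CPM in WT. Somatic markers were present as well. The 12 Sertoli cell markers summed to 2176 and 2720 CPM in Sirt7-/- and to 2466 and 2391 CPM in WT. Of 9 stromal fibroblast markers, 5 were called lower in Sirt7-/- (Postn, Mfap5, Col3a1, Dcn and Dpt), where 0.0456% of all genes tested were, with a sum over the list of 1017 and 1175 CPM in Sirt7-/- and 1158 and 1282 CPM in WT. These 5 calls were lost without Sirt7-/- replicate 1, WT replicate 1 or WT replicate 2, and with no filter on low counts. All but the first of these settings ended every call among all genes tested. Of the 5 calls, 3 held with limma-voom and 2 with total-count scaling. The 6 erythroid markers summed to 1536 and 1152 CPM in Sirt7-/- against 1017 and 924 CPM in WT. All 5 of them that were tested lay above WT in both Sirt7-/- libraries, as did 20.3% of all genes tested, and none was called except with Sirt7-/- replicate 2 left out or with the replicate number as a block, when all 5 were. In bulk RNA, fewer cells of a type and less RNA per cell cannot be told apart, and what these mixed cells contribute to any sirtuin level was not tested.

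The members share a catalytic core, and the stretch of coding sequence that runs from the codons of a shared glutamine-asparagine pair to the codons of the catalytic histidine and the glycine after it is shown here because it is what makes the 7 genes a family and because similar sequence could confuse read assignment. The capitals mark the codons of the shared residues: the glutamine-asparagine pair, the aspartate that follows after 1 intervening codon, and the histidine-glycine pair at the end. The sequences are the coding strand, 5′ to 3′, with introns removed, from the GENCODE annotation of GRCm39.
Sirt1: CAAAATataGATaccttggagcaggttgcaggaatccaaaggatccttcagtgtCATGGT
Sirt6: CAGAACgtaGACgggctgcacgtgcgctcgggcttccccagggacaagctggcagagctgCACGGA
Sirt7: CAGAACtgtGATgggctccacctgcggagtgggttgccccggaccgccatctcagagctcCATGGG
Sirt2: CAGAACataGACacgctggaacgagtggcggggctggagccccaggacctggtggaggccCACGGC
Sirt3: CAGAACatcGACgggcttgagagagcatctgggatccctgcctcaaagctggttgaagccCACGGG
Sirt4: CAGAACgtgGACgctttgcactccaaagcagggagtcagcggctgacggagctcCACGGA
Sirt5: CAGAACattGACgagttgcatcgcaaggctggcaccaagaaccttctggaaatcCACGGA

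The stretch is 66 bases long in Sirt2, Sirt3, Sirt6 and Sirt7 and 60 bases long in Sirt1, Sirt4 and Sirt5. In Sirt7 it lies within exon 6 of 10 (chr11:120511798-120511863, minus strand), and in Sirt4 within exon 2 of 5 (chr5:115620694-115620753, minus strand). In the other 5 genes an exon junction falls inside it. Identity between pairs ran from 47.0% for Sirt1 and Sirt6 to 67.2% for Sirt2 and Sirt3, and was 63.6% for Sirt6 and Sirt7. The longest exact run that any pair of the genes shared over all annotated transcripts was 56 bases, in Sirt1 and Sirt6, which is shorter than the 150-base reads. Runs of at least 100 bases were found between the canonical transcript of a sirtuin and transcripts of other genes, in a search sure to find those of 109 bases or more, only where the genes overlap on opposite strands: Sirt1 with Herc4, Sirt3 with Ric8a, Sirt4 with Gm57298, Sirt5 with Gm59983 and Sirt6 with Ankrd24.

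Sirt7 transcript remained detectable in the Sirt7-/- libraries at 18.1% of its WT level, and the other 6 sirtuins did not pass the test. Sirt7 (ENSMUSG00000025138, chr11:120509197-120516066, minus strand) encodes a nuclear deacetylase that is concentrated in the nucleolus and acts on lysines of histone H3. It had 129 and 122 counts in the Sirt7-/- libraries and 704 and 692 counts in the WT libraries. Scaled to library size this was 5.87 and 5.55 CPM in Sirt7-/-, against 32.0 and 31.2 CPM in WT. The groups did not overlap, and the gap between them was far wider than the spread within either.

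The mean level of Sirt7 was 5.71 ± 0.221 CPM in Sirt7-/- and 31.6 ± 0.518 CPM in WT (SD, n = 2 each), a log2 fold change of -2.47 ± 0.11 (SE, 95% interval -2.71 to -2.23). As a share of WT this is 18.1%, with an interval of 15.3% to 21.4%. The Sirt7-/- libraries stood at 18.6% and 17.6% of the WT mean, so the remaining signal was alike in both. Sirt7 had the smallest p-value of the 19736 genes tested, with a Benjamini-Hochberg adjusted p of 3.63e-06 in edgeR's quasi-likelihood test. With 0.1 as the limit for the adjusted p, 17 genes or 0.0861% of those tested were called, 9 of them lower (0.0456%) and 8 higher (0.0405%). Sirt7 was the only sirtuin among them. The size of its fall was stable when any single library was left out (-2.51 to -2.42). Its call was lost without WT replicate 1 or WT replicate 2, and with no filter on low counts (edgeR adjusted p = 0.433). These settings ended every call among all genes tested, not that of Sirt7 alone. The counts are given per gene, so where along Sirt7 the remaining reads lay was not analysed here.

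**Figure D1:**
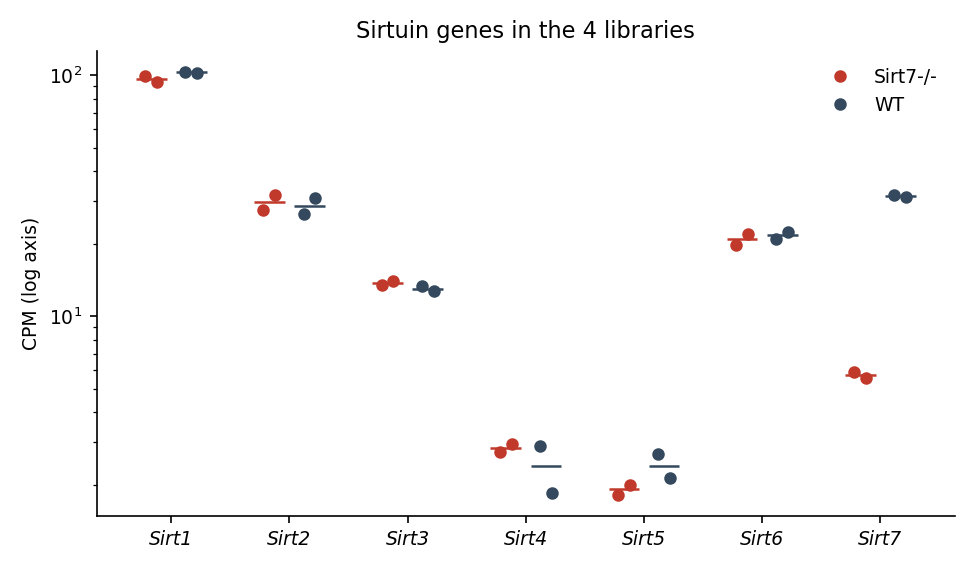
Level of each sirtuin gene in CPM (vertical log axis) for the 7 genes along the horizontal axis, with Sirt7-/- libraries in red left of WT libraries in dark blue and a short line at each group mean (n = 2 libraries each). Sirt7 had 5.87 and 5.55 CPM in Sirt7-/- and 32.0 and 31.2 CPM in WT, while the points of the other 6 genes lay close together or overlapped.

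The other nuclear sirtuins, Sirt1 and Sirt6, were both slightly below WT on average and neither passed the test. Sirt1 (ENSMUSG00000020063, chr10:63154581-63217483, minus strand) encodes a deacetylase of histones and of transcription regulators such as p53 and the FOXO proteins. It had 99.7 and 94.4 CPM in Sirt7-/- and 103.5 and 102.8 CPM in WT, so that both Sirt7-/- libraries were below both WT libraries. The log2 fold change of Sirt1 was -0.09 ± 0.07 (SE, 95% interval -0.23 to 0.06), which places its level between 85.1% and 104% of WT, with an adjusted p of 0.742 in edgeR's quasi-likelihood test. This SE was the smallest of the 7.

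Sirt6 (ENSMUSG00000034748, chr10:81455262-81463631, minus strand) encodes a chromatin-bound deacetylase with roles in telomere maintenance, DNA repair and glucose metabolism. Its level was 19.8 and 22.03 CPM in Sirt7-/- and 21.0 and 22.5 CPM in WT. The libraries of the groups overlapped. The log2 fold change of Sirt6 was -0.06 ± 0.10 (SE, 95% interval -0.28 to 0.17), an interval of 82.3% to 112% of WT, with an adjusted p of 0.910 in edgeR's quasi-likelihood test. Its sign changed to 0.02 when Sirt7-/- replicate 1 was left out.

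Sirt2, the cytoplasmic member (ENSMUSG00000015149, chr7:28466160-28488090, plus strand), encodes a deacetylase of alpha-tubulin and of metabolic enzymes. Sirt2 stood at 27.7 and 31.9 CPM in Sirt7-/- and at 26.5 and 31.0 CPM in WT. Each group held a lower and a higher library, and the spread within a group (SD 2.98 CPM in Sirt7-/- and 3.18 CPM in WT) exceeded the difference between the means of 29.8 CPM in Sirt7-/- and 28.8 CPM in WT. The log2 fold change of Sirt2 was 0.05 ± 0.11 (SE, 95% interval -0.19 to 0.29), or 87.9% to 122% of WT, with an adjusted p of 0.930 in edgeR's quasi-likelihood test. This sign too rested on single libraries, being -0.05 without Sirt7-/- replicate 2 and -0.06 without WT replicate 1.

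Of the mitochondrial sirtuins, Sirt3 was moderately abundant, and Sirt4 and Sirt5 had the lowest levels of the family. Sirt3 (ENSMUSG00000025486, chr7:140443577-140462311, minus strand) encodes the main deacetylase of the mitochondrial matrix. Its level was 13.5 and 14.0 CPM in Sirt7-/- and 13.4 and 12.7 CPM in WT. Both Sirt7-/- libraries were above both WT libraries, but the nearest of them, Sirt7-/- replicate 1 and WT replicate 1, had Poisson intervals of 12.01 to 15.1 CPM and 11.9 to 15.0 CPM. The log2 fold change of Sirt3 was 0.08 ± 0.11 (SE, 95% interval -0.17 to 0.32), or 89.2% to 125% of WT, with an adjusted p of 0.879 in edgeR's quasi-likelihood test.

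Sirt4 (ENSMUSG00000029524, chr5:115616065-115622784, minus strand) encodes an enzyme with ADP-ribosyltransferase and deacylase activity that restrains glutamate dehydrogenase. It was counted 60 and 65 times in Sirt7-/- and 64 and 41 times in WT, that is 2.73 and 2.96 CPM in Sirt7-/- and 2.91 and 1.85 CPM in WT. WT replicate 2 was low and the other 3 libraries were close to each other. The log2 fold change of Sirt4 was 0.26 ± 0.24 (SE, 95% interval -0.28 to 0.80), with an adjusted p of 0.802 in edgeR's quasi-likelihood test, and it became -0.03 when WT replicate 2 was left out.

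Sirt5 (ENSMUSG00000054021, chr13:43518856-43550487, plus strand) encodes the enzyme that removes succinyl, malonyl and glutaryl groups from mitochondrial proteins. Its counts were 40 and 44 in Sirt7-/- and 59 and 47 in WT. In CPM this was 1.82 and 2.00 in Sirt7-/- against 2.68 and 2.12 in WT, both Sirt7-/- libraries lying below both WT libraries. At these counts, the exact Poisson interval of a single library was wide: 1.30 to 2.48 CPM for Sirt7-/- replicate 1 and 2.04 to 3.46 CPM for WT replicate 1. Such intervals cover counting error only. The log2 fold change of Sirt5 was -0.33 ± 0.23 (SE, 95% interval -0.84 to 0.19), or 55.8% to 114% of WT, with an adjusted p of 0.728 in edgeR's quasi-likelihood test. That interval includes no change, and what size of change of Sirt5 could have been called was not tested.

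Without Sirt7, 0 of 6 sirtuins were called by edgeR's quasi-likelihood test, 0 of 6 had an unadjusted p under 0.05, and DESeq2, which called 0.335% of the genes it tested, called 0 of 6. Libraries of the groups did not overlap for 3 of these 6 genes (Sirt1, Sirt3 and Sirt5), against 39.7% of all genes tested, of which 19.4% lay lower and 20.3% higher in Sirt7-/-. That share is near the background. The median log2 fold change of the 6 genes was -0.003, beside 0.003 over all genes tested. The 95% intervals of Sirt1, Sirt2, Sirt3 and Sirt6 lay within 82.3% to 125% of WT, whereas those of Sirt4 (82.2% to 174%) and Sirt5 (55.8% to 114%) were wider.

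**Figure D2:**
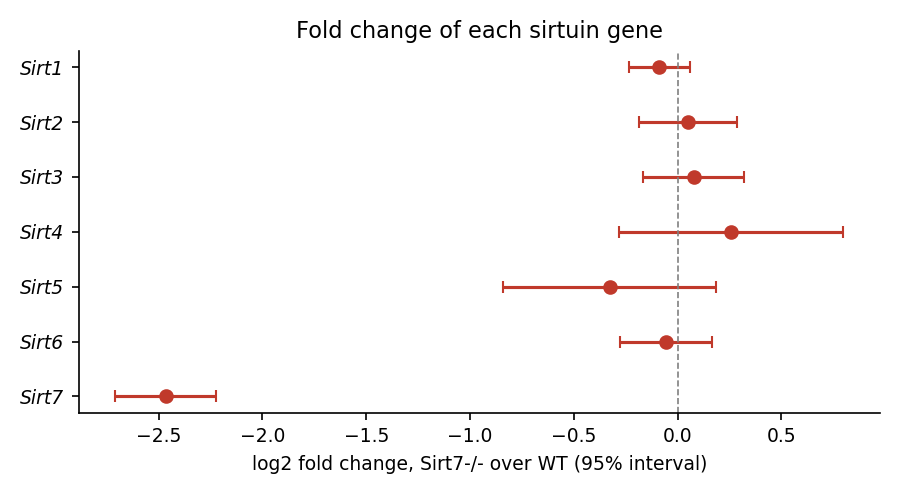
Log2 fold change of each sirtuin gene, Sirt7-/- over WT (horizontal axis), with bars for the 95% interval of edgeR's fit and a dashed line at no change. The interval of Sirt7 ran from -2.71 to -2.23, and those of the other 6 genes included 0, the widest being that of Sirt4 (-0.28 to 0.80).

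How abundant the members were relative to each other was read per length, in CPM per kb of the summed exons of each gene. The order in WT was Sirt1, Sirt7, Sirt2, Sirt6, Sirt3, Sirt4 and Sirt5. In Sirt7-/- libraries the level of Sirt1 was 17.6 and 16.6 CPM per kb, against 18.2 and 18.1 CPM per kb in WT, where it exceeded 85.9% of the 14941 protein-coding genes tested. Sirt7 stood at 1.14 and 1.08 CPM per kb in Sirt7-/- and at 6.21 and 6.07 CPM per kb in WT. It therefore ranked 5 of 7 in Sirt7-/- and 2 of 7 in WT, its place in Sirt7-/- being between Sirt3 and Sirt4.

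The remaining levels fell in steps. Sirt2 averaged 5.48 ± 0.547 CPM per kb in Sirt7-/- and 5.29 ± 0.584 CPM per kb in WT (SD, n = 2 each). Sirt6 averaged 3.14 ± 0.239 CPM per kb in Sirt7-/- and 3.26 ± 0.154 CPM per kb in WT, and Sirt3 averaged 1.57 ± 0.0413 CPM per kb in Sirt7-/- and 1.48 ± 0.0573 CPM per kb in WT. On this scale these members sat in the middle range of the transcriptome. In WT 59.2%, 48.2% and 32.7% of the tested protein-coding genes lay below Sirt2, Sirt6 and Sirt3. With canonical transcripts these shares were 70%, 63% and 57%. Sirt4 averaged 1.02 ± 0.0585 CPM per kb in Sirt7-/- and 0.856 ± 0.269 CPM per kb in WT. Sirt5 was the least abundant member, at 0.204 ± 0.0139 CPM per kb in Sirt7-/- and 0.257 ± 0.0422 CPM per kb in WT. Below it in WT lay 9.19% of the tested protein-coding genes, or 22.5% with canonical transcripts.

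On this scale the WT libraries of neighbouring members did not overlap, although the step between Sirt7 and Sirt2 was small: the ratio of Sirt7 to Sirt2 was 1.16 between the WT means and 1.06 and 1.27 within the WT libraries. The scale matters for the steps between members, at the top of the order as well as lower down. The ratio of Sirt1 to Sirt7 between the WT means was 2.96 on summed exons and 1.35 with canonical transcripts. The summed exons include introns retained in some annotated transcripts, so Sirt5 was divided by 9342 bp where its canonical transcript has 1918 bp, and Sirt3 by 8787 bp where its canonical transcript has 1435 bp. With canonical transcripts the order was the same, but Sirt3 came to 9.59 CPM per kb in Sirt7-/- and 9.09 CPM per kb in WT, close to Sirt6 with 11.1 CPM per kb in Sirt7-/- and 11.5 CPM per kb in WT, and the WT libraries of Sirt4 and Sirt5 overlapped (1.62 and 1.03 CPM per kb for Sirt4, 1.40 and 1.11 CPM per kb for Sirt5). With the longest annotated transcript Sirt2 came above Sirt7 in WT, at 13.6 CPM per kb against 9.65 CPM per kb.

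**Figure D3:**
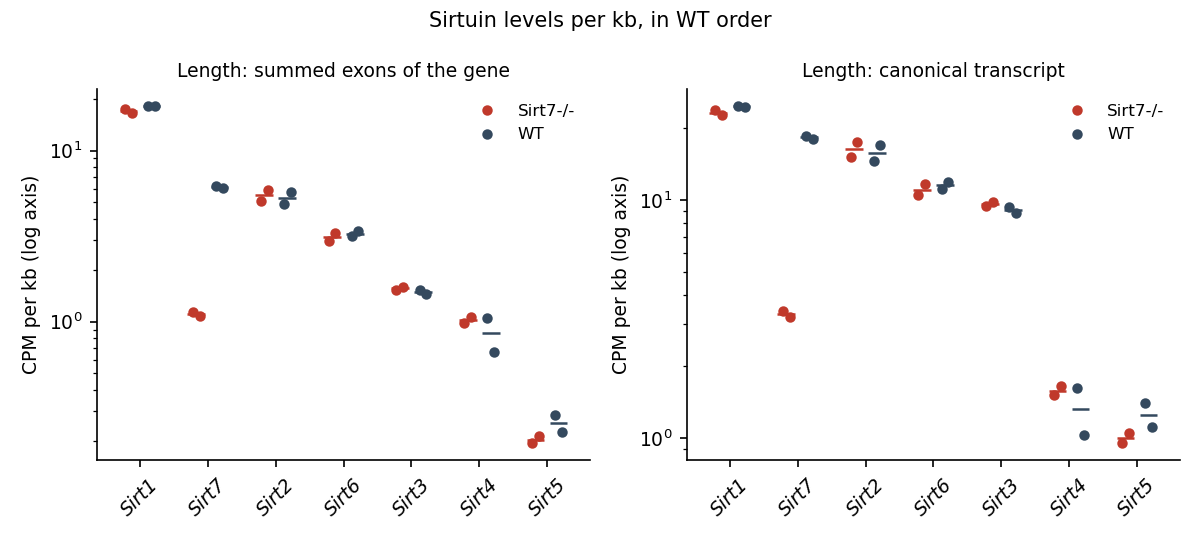
Level of each sirtuin in CPM per kb (vertical log axis), genes ordered by their WT mean, with Sirt7-/- libraries in red left of WT libraries in dark blue and lines at the group means (n = 2 each). The left panel divides by the summed exons of the gene and the right panel by the canonical transcript. Sirt1 led in both, Sirt7 ranked 5 of 7 in Sirt7-/- and 2 of 7 in WT, and Sirt4 and Sirt5 overlapped in WT only on the right.

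Summed over the family, sirtuin transcript was lower in Sirt7-/-, and most of the difference was Sirt7 itself. The 7 genes came to 29.5 and 29.8 CPM per kb of summed exons in Sirt7-/- and to 35.3 and 35.6 CPM per kb in WT, so the Sirt7-/- mean was 83.5% of the WT mean, a difference of -5.84 CPM per kb. Without Sirt7 the other 6 came to 28.4 and 28.7 CPM per kb in Sirt7-/-, against 29.1 and 29.5 CPM per kb in WT, or 97.2% and a difference of -0.816 CPM per kb. With canonical transcripts the corresponding shares were 80.7% and 98.7%. No test was made of these sums. The sum of the other 6 was not above WT in either Sirt7-/- library on the scale of summed exons, and the groups overlapped with canonical transcripts (61.4 and 64.2 CPM per kb in Sirt7-/-, 62.8 and 64.5 CPM per kb in WT).

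The make-up of the family shifted with it. On summed exons, Sirt7 was 3.74% of the summed level in Sirt7-/- and 17.3% in WT. The 3 nuclear members were 72.1% in Sirt7-/- and 77.8% in WT. The mitochondrial members held 9.20% and 9.66% of the sum in the Sirt7-/- libraries and 8.08% and 6.56% in the WT libraries. The shares depended on the length used. With canonical transcripts Sirt7 was 5.01% in Sirt7-/- and 22.3% in WT, and the nuclear members were 57.0% in Sirt7-/- and 66.6% in WT. The mitochondrial members then held 18.3% and 18.5% in the Sirt7-/- libraries and 15.2% and 13.3% in the WT libraries. Shares of a sum move when any part of it moves. In CPM per kb of summed exons the mitochondrial members themselves summed to 2.71 and 2.87 in Sirt7-/- and 2.86 and 2.34 in WT. These libraries overlapped.

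**Figure D4:**
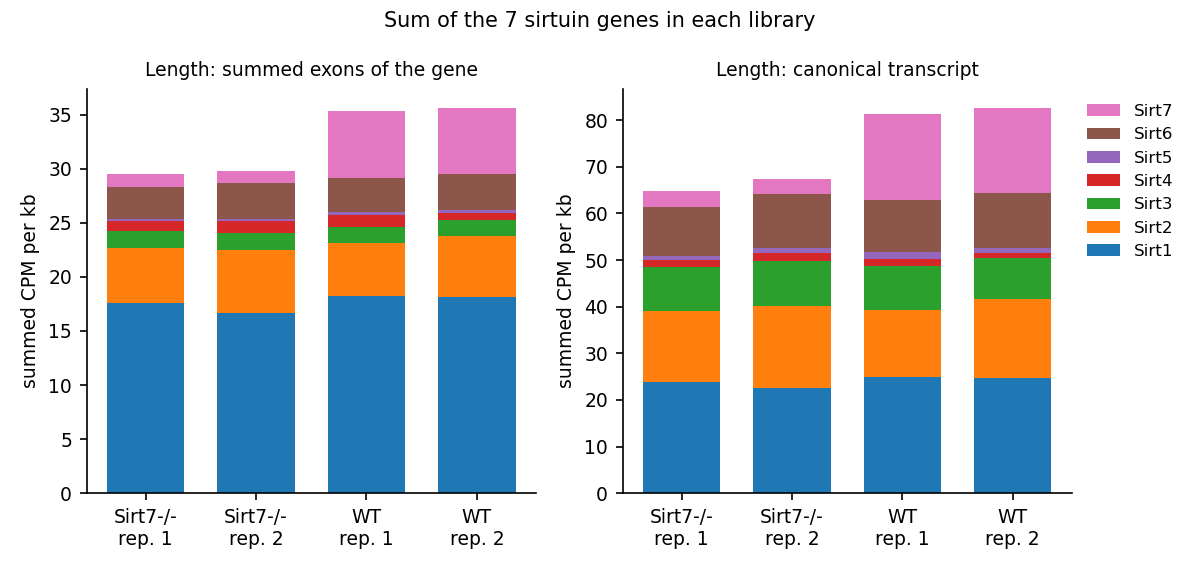
Summed level of the 7 sirtuin genes in each library (vertical axis, CPM per kb, stacked bars from 0, a colour for each gene), Sirt7-/- libraries left of WT libraries, with length taken as the summed exons (left) or the canonical transcript (right). The bars of the Sirt7-/- libraries (29.5 and 29.8 CPM per kb on the left) were shorter than those of WT (35.3 and 35.6 CPM per kb), and the segment that differed most was Sirt7, on top.

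Genes beside the sirtuins in the genome were examined because reads of overlapping genes can be hard to assign. Around Sirt7, Pcyt2 was called lower and the other genes were not called. Pcyt2 encodes the enzyme of the CTP-dependent step of phosphatidylethanolamine synthesis. It begins 383 bp beyond the 3′ end of Sirt7 on the same strand (chr11:120500518-120508813) and had 1004 and 1002 counts in Sirt7-/- against 1431 and 1484 counts in WT. In CPM this was 45.6 and 45.6 in Sirt7-/- and 65.0 and 67.0 in WT, with no overlap. Its log2 fold change was -0.53 ± 0.07 (SE), with an adjusted p of 0.0349 in edgeR's quasi-likelihood test. The call was lost without Sirt7-/- replicate 1, WT replicate 1 or WT replicate 2, and with no filter on low counts (edgeR adjusted p = 0.716). All but the first of these settings ended every call among all genes tested. In these fits Pcyt2 kept a log2 fold change of about the same size, at -0.53, -0.55, -0.51 and -0.52 in the same order.

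Mafg, a small MAF transcription factor, overlaps the 5′ end of Sirt7 on the same strand over 125 bp of exon, and Mir6936 lies within Sirt7 and had 0 counts in all 4 libraries. Mafg had 4205 and 4304 counts in Sirt7-/- and 4929 and 4775 counts in WT, with both Sirt7-/- libraries below WT. Its log2 fold change was -0.18 ± 0.06 (SE), with an adjusted p of 0.474 in edgeR's quasi-likelihood test. Pycr1, a proline synthesis enzyme on the other side of Mafg, had a log2 fold change of -0.19 ± 0.15 (SE). How reads in the shared exon bases were divided between Sirt7 and Mafg was not tested.

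None of the tested neighbours of the other 6 sirtuins was called. Herc4, a ubiquitin ligase gene that runs against Sirt1 and shares 707 bp of exon with it, had 103.5 and 97.9 CPM in Sirt7-/- and 97.9 and 101.2 CPM in WT. Ric8a, a chaperone of G protein alpha subunits at the end of Sirt3, had 61.3 and 66.5 CPM in Sirt7-/- and 63.3 and 65.4 CPM in WT. Both were close to WT, with log2 fold changes of 0.02 ± 0.07 for Herc4 and -0.01 ± 0.07 for Ric8a (SE). The library kit was strand-specific, but the strand setting of the counting is not given in the sources used here, so reads of opposite genes over shared bases may not have been kept apart. Nfkbib, an inhibitor of NF-kappa-B that overlaps Sirt2, had the smallest adjusted p among these neighbours, 0.309 in edgeR's quasi-likelihood test, at 33.2 and 38.1 CPM in Sirt7-/- and 28.6 and 25.1 CPM in WT. It was called only with the replicate block, and Gfod1, beside Sirt5, only without Sirt7-/- replicate 2.

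The pathway around the sirtuins was read from 8 lists. They held genes that supply or convert NAD+, other enzymes that consume it, regulators of sirtuins, and the classical zinc-dependent histone deacetylases. The remaining lists held substrates and partners by compartment or for SIRT7. No member of any of these lists was called by edgeR's quasi-likelihood test, and DESeq2 called 0 as well. The count remained 0 under the other settings that kept all 4 libraries. With no filter on low counts it could not be otherwise, because 0 genes of the whole table were called. With the replicate block 236 of 19736 genes were called, and 0 of them were on these lists. In the main test 0.0861% of all genes tested were called. The list medians of the log2 fold change ran from -0.026 to 0.022, beside 0.003 over all genes tested.

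Of 23 genes listed for NAD+ supply and conversion, 15 were tested, among them Nadk, which uses NAD+. Their transcript levels do not measure NAD+ itself. Nampt, the rate-limiting enzyme of the salvage route from nicotinamide, had 67.1 and 67.5 CPM in Sirt7-/- and 64.3 and 59.6 CPM in WT (log2 fold change 0.12 ± 0.07, SE). Nadk, the kinase that makes NADP+ from NAD+, had 146.1 and 146.0 CPM in Sirt7-/- and 142.8 and 144.1 CPM in WT. The Sirt7-/- libraries were above WT for both genes, as for 20.3% of all genes tested, and neither gene was called. The list median was 0.002 with 0 of 15 members at an unadjusted p under 0.05, against 8.62% of all genes tested.

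Of 23 other consumers of NAD+, 20 were tested, with a median of -0.004. Of these 20, 0 had an unadjusted p under 0.05, against 8.62% of all genes tested. Parp1, which builds poly(ADP-ribose) at DNA breaks, had 675 and 620 CPM in Sirt7-/- and 634 and 656 CPM in WT. These libraries overlapped and the log2 fold change was 0.00 ± 0.06 (SE). Tnks2, a tankyrase, had 252 and 245 CPM in Sirt7-/- and 268 and 274 CPM in WT, a log2 fold change of -0.13 ± 0.06 (SE).

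Among 17 regulators of sirtuins, all tested, the median was -0.023. Of these, 3 (17.65%) had an unadjusted p under 0.05, against 8.62% of all genes tested (Foxo1, Senp1 and Setd7, named after their values were seen). Libraries of the groups did not overlap for 12 of the 17, or 70.6%, against 39.7% of all genes tested. Sirt7-/- lay above WT for 5 of these 12 and below WT for 7. Foxo1, a transcription factor and SIRT1 substrate that is itself a spermatogonial marker, had 193 and 186 CPM in Sirt7-/- and 158 and 173 CPM in WT, a log2 fold change of 0.20 ± 0.07 (SE) with an edgeR adjusted p of 0.478. Senp1, a SUMO protease, had 68.6 and 72.0 CPM in Sirt7-/- and 77.9 and 82.0 CPM in WT, and Setd7, a lysine methyltransferase, had 37.7 and 38.4 CPM in Sirt7-/- and 30.6 and 34.98 CPM in WT. The most abundant members were the deubiquitinases Usp7 and Usp22. Usp22 stood at 329.7 and 310.5 CPM in Sirt7-/- and 336.9 and 333.3 CPM in WT, and Usp7 at 352.8 and 352.0 CPM in Sirt7-/- and 358.4 and 361.3 CPM in WT.

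Substrates were grouped by the compartment of the sirtuin that acts on them. Of 24 nuclear substrates and partners, 1 (Foxo1) had an unadjusted p under 0.05, against 8.62% of all genes tested. The median was -0.010. Trim28, a corepressor of transposable elements, had 510.5 and 499.1 CPM in Sirt7-/- and 533.6 and 521.3 CPM in WT, a log2 fold change of -0.06 ± 0.06 (SE). Of 15 genes listed as SIRT2 substrates 0 had an unadjusted p under 0.05, against the same 8.62%. Their median was 0.022. Acly, the cytoplasmic source of acetyl-CoA, had 746.7 and 737.4 CPM in Sirt7-/- and 661.9 and 698.3 CPM in WT. Its log2 fold change was 0.13 ± 0.06 (SE). Tubb5 overlapped between the groups, but it encodes a beta-tubulin, and the SIRT2 substrate named above is alpha-tubulin. The alpha-tubulin genes Tuba1a, Tuba1b and Tuba1c, named after their values were seen, overlapped as well.

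The 29 mitochondrial substrates tested, of 32 listed, had a median of 0.014. Of these, 3 (10.3%) had an unadjusted p under 0.05, against 8.62% of all genes tested. Ppif and Opa1, named after their values were seen, were among the 3. Atp5f1a, the alpha subunit of ATP synthase, had 623 and 585 CPM in Sirt7-/- and 616 and 606 CPM in WT, a log2 fold change of -0.02 ± 0.06 (SE). Ppif, cyclophilin D of the permeability transition pore, had 47.5 and 45.3 CPM in Sirt7-/- and 37.5 and 40.5 CPM in WT. Opa1, a fusion factor of the inner membrane, had 51.2 and 49.5 CPM in Sirt7-/- and 56.3 and 60.5 CPM in WT. The summed level of the list was 2943 and 2944 CPM in Sirt7-/- and 2950 and 2949 CPM in WT.

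Genes linked to SIRT7 itself were close to WT in transcript level. All 29 of this list were tested, and 0 had an unadjusted p under 0.05 in edgeR's test, against 8.62% of all genes tested. Their log2 fold changes ran from -0.13 to 0.18 with a median of -0.026. The list holds components of RNA polymerase I transcription, nucleolar proteins, transcription factors through which SIRT7 is known to reach promoters, and partners in the endoplasmic reticulum stress response. Npm1, a nucleolar protein and SIRT7 substrate, had 1168 and 1021 CPM in Sirt7-/- and 1092 and 1072 CPM in WT. Hspa5, the chaperone BiP of the endoplasmic reticulum, had 841 and 884 CPM in Sirt7-/- and 847 and 823 CPM in WT. Both overlapped between the groups, with log2 fold changes of 0.02 ± 0.07 for Npm1 and 0.05 ± 0.06 for Hspa5 (SE).

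The other deacetylase family, the 11 classical histone deacetylases, was tested in full, with a median of 0.021. Of the 11, 0 had an unadjusted p under 0.05, against 8.62% of all genes tested. Hdac2 had 207 and 200.7 CPM in Sirt7-/- and 189 and 197 CPM in WT, a log2 fold change of 0.08 ± 0.06 (SE). Hdac6, which deacetylates tubulin in the cytoplasm as SIRT2 does, had 322 and 336 CPM in Sirt7-/- and 310 and 334 CPM in WT. No member reached a call, and their log2 fold changes ran from -0.17 to 0.12.

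**Figure D5:**
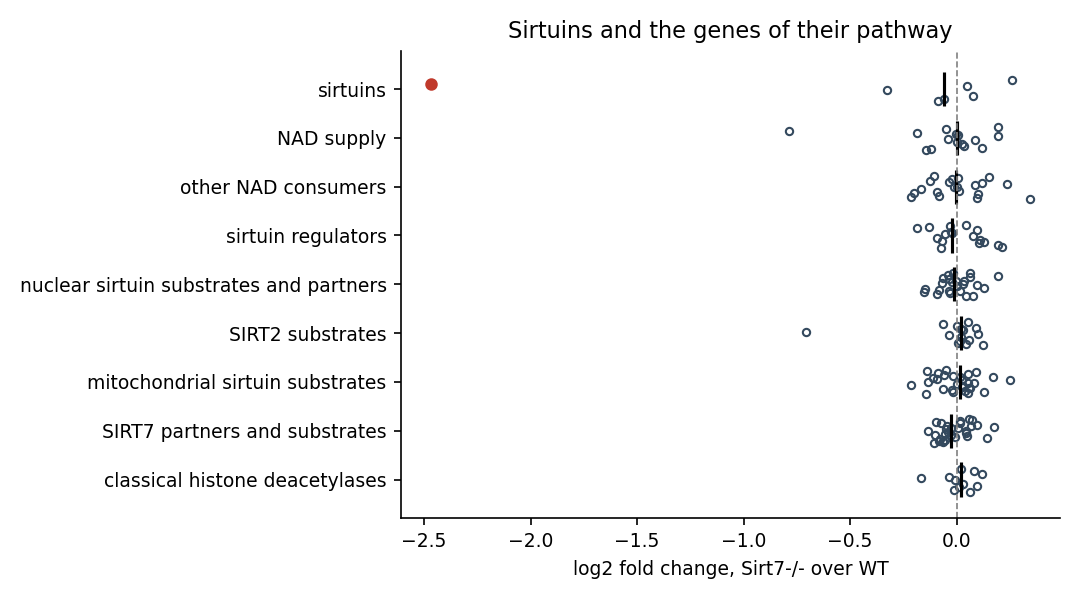
Log2 fold change, Sirt7-/- over WT (horizontal axis), of every tested gene in the sirtuin family and the 8 pathway lists (rows), with open circles for genes that were not called, a filled red circle for the called gene, Sirt7, and a vertical bar at each list's median. Apart from Sirt7 at -2.47, most circles gather around the dashed line at no change, the lowest of the others being Nmrk2 at -0.79 and Pck1 at -0.71, neither called, and the 8 list medians lay between -0.026 and 0.022.

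Over the 4 libraries, the profiles most like that of Sirt7 were found by the root mean square difference of log2(CPM + 0.1) centred on each gene's own mean, among tested genes with a mean of at least 1 CPM. The nearest was Mfap5, a microfibril protein of stromal cells, at a distance of 0.341, with 0.818 and 0.865 CPM in Sirt7-/- and 3.22 and 3.02 CPM in WT. Rtp4, an interferon-induced chaperone of receptors, followed at 0.483, with 1.14 and 0.501 CPM in Sirt7-/- and 5.63 and 2.84 CPM in WT. Ccn3, a matricellular protein, was at 0.501, with 0.637 and 0.683 CPM in Sirt7-/- and 3.36 and 1.67 CPM in WT. Counts in Sirt7-/- were low, at 18 and 19 for Mfap5, 25 and 11 for Rtp4, and 14 and 15 for Ccn3. With 2 libraries in each group, the measure mainly picks genes with a fall of similar size. No other sirtuin was among these 3 genes, which adds nothing, as no other sirtuin was called. Mfap5 was called by edgeR's quasi-likelihood test and by DESeq2, and Rtp4 by DESeq2 alone.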

How the data were processed

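RNA was sequenced as strand-specific mRNA libraries with paired 150-base reads. The authors, by the labels and their methods, aligned reads to GRCm39 with HISAT2, counted them per gene with featureCounts, and deposited the raw counts. Versions, annotation release, strand setting and treatment of multimapping reads are not stated in the sources used here. All 4 sample columns were used, and 0 per-sample columns were left out.

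Gene IDs were matched without version to GENCODE M39 symbols (78263 of 78275; 12 did not match). Genes were filtered (filterByExpr, minimum count 10), scaled by TMM and tested across all 4 libraries with the quasi-likelihood test of edgeR 4.0.16 in R 4.3.3, with Benjamini-Hochberg adjustment over 19736 genes and a threshold of 0.1. The SE is the log2 fold change over the root of F, and 95% intervals used the fit's total degrees of freedom. CPM use TMM-scaled library sizes. Levels per kb divide by summed exons. Counting intervals are exact Poisson. DESeq2 1.42.0, voom of limma 3.58.1, other scalings and filters, a replicate block and each library left out were the alternatives.

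Genes named are the 7 sirtuins, genes that overlap them or are the nearest coding genes, called list members or otherwise the 2 most abundant members of each list, and the 3 profiles nearest to Sirt7. Exceptions are marked. A gene that the rule names is not reported here. The members and lists were chosen with earlier results of these data known.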

Additional observations from a re-analysis of the deposited data

How the results depend on the processing

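The number of genes called was 17 with the design reported and 9 at an adjusted p under 0.05. It was 48 with DESeq2 (712 at an unadjusted p under 0.05) and 236 once replicate number was a block. It was 0 with edgeR and no filter on low counts (2032 at an unadjusted p under 0.05). Leaving out a library gave 0 to 465 genes: 8 without Sirt7-/- replicate 1, 465 without Sirt7-/- replicate 2, and 0 without WT replicate 1 or WT replicate 2 (596 and 824 at an unadjusted p under 0.05 in edgeR). Where 1 library was left of a group, it was assumed to vary like the other group. Replicate numbers are not known to pair the samples: deviations of same-numbered libraries correlated at 0.138 over 10057 genes of at least 10 CPM. With the block, Sirt7 was -2.47 and no sirtuin's call changed. The fall of Sirt7 was -2.46 with no filter (edgeR adjusted p = 0.433) and -2.51 to -2.42 with a library left out, its call being lost at -2.45 without WT replicate 1 and -2.48 without WT replicate 2. Signs turned for Sirt2 (-0.05 without Sirt7-/- replicate 2, -0.055 without WT replicate 1, range -0.055 to 0.17), Sirt4 (-0.031 without WT replicate 2, range -0.031 to 0.62) and Sirt6 (0.018 without Sirt7-/- replicate 1, range -0.13 to 0.018), and those of Sirt1, Sirt3 and Sirt5 were kept in all 11 alternatives. WT levels moved with the length used. With the longest transcript, canonical transcript and no length correction they were 22.3, 24.7 (CPM per kb) and 103.2 (CPM) for Sirt1, 13.6, 15.7 and 28.8 for Sirt2, 3.04, 9.09 and 13.04 for Sirt3, 1.23, 1.32 and 2.38 for Sirt4, 0.823, 1.25 and 2.40 for Sirt5, 5.17, 11.5 and 21.8 for Sirt6, and 9.65, 18.3 and 31.6 for Sirt7. Depth limits Sirt4 and Sirt5 most, at 40 to 65 counts per library.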
